A study of Homo sapiens with 6 samples.

Results

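The genes described here make, store and break down glycogen in T47D, a human breast ductal carcinoma line that expresses the oestrogen receptor. They are 9 genes picked by symbol out of the 17758 in the table, and all 9 passed the low-count filter that 13824 genes passed. PPP1R3C was picked because its level was higher after CUEDC1 knockdown, so its values are given as a description with no test. The other 8, PPP1R3B, PPP1R3D, UGP2, GYG1, GYS1, GBE1, PYGB and PYGL, were picked for their place in the pathway. Earlier results of these data were known when they were picked. RNA was sequenced from 3 control libraries (shNC), whose cells carried lentivirus with a non-targeting short hairpin RNA, and from 3 knockdown libraries (shCUEDC1), whose cells carried lentivirus with short hairpin RNA against CUEDC1. All cells were T47D with stably integrated virus, grown in a standard serum-supplemented medium. How many hairpins were used is not given in the sources used here, nor whether the 3 libraries of a group came from separate infections, so a p-value reflects only the variation among these libraries, and an effect of the hairpin sequence cannot be told apart from loss of CUEDC1.

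Glycogen is a branched glucose polymer that cells keep as a glucose reserve. UGP2 makes the donor UDP-glucose, glycogenin (GYG1) primes a chain, glycogen synthase (GYS1) lengthens it and GBE1 adds branches, while glycogen phosphorylases (PYGB and PYGL) release glucose 1-phosphate from chain ends. Subunits of the PPP1R3 family hold protein phosphatase 1 (PP1) on the glycogen particle, where dephosphorylation activates glycogen synthase and inactivates phosphorylase. PPP1R3C is also called PTG, protein targeting to glycogen.

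The knockdown was seen in the RNA. CUEDC1 was at 110, 109 and 93.3 CPM (estimated reads per library size, normalised by TMM) in shNC 1, 2 and 3 and at 31.4, 33.8 and 32.0 CPM in shCUEDC1 1, 2 and 3. Libraries held 18924327 to 19731609 estimated reads. The library shNC 3 stood apart from shNC 1 and 2: over the 10142 genes whose mean reached 10 CPM, the SD of the log2 difference was 0.11 between shNC 1 and 2, and 0.25 and 0.27 between each of them and shNC 3. This SD was 0.13 between knockdown libraries, and 0.23 to 0.25 between shNC 1 or 2 and a knockdown library. So shNC 3 lay about as far from shNC 1 and 2 as the knockdown libraries did. Where leaving out shNC 3 changed a call or turned a direction for a glycogen gene named here, the value without it is also given. Of 8 luminal breast markers, ESR1 and PGR were between 16.9 and 28.9 FPKM (fragments scaled to gene length and library size) and the other 6 at 114 FPKM or more, and the hepatocyte and muscle markers ALB, APOA1, CKM and ACTA1 lay between 0 and 0.33 FPKM. Of the leukocyte, fibroblast and endothelial markers, CD68 was at 1.63 to 2.32 FPKM, PTPRC at 0.31 to 0.65 and the other 7 between 0 and 0.56 FPKM.

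Sequence before the start site is shown for 3 members: for PPP1R3C, for PYGL, which was also higher in the knockdown, and for PPP1R3D, a paralogue of PPP1R3C that was not called. Each run is the 250 bases before the RefSeq start on GRCh38.p14, printed 5′ to 3′ on the gene's own strand, the minus strand for all 3. Capitals mark ACGTG, the core of hypoxia response elements, read on either strand (CACGT is its reverse complement).
PPP1R3C, chr10:91633072-91633321: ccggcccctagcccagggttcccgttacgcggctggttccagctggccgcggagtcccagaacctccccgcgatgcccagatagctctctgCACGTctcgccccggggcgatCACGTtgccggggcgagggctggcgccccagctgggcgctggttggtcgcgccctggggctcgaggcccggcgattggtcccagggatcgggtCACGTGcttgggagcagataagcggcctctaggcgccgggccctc
PYGL, chr14:50944484-50944733: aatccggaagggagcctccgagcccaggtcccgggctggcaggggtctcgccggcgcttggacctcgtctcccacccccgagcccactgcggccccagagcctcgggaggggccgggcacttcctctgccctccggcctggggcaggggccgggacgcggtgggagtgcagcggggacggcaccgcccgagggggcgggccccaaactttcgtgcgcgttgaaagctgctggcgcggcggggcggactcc
PPP1R3D, chr20:59940306-59940555: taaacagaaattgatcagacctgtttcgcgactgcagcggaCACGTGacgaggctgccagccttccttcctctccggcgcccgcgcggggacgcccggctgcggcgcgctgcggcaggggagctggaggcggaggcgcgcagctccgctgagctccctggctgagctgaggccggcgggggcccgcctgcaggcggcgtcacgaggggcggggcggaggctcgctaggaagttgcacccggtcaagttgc
The PPP1R3C window held ACGTG at 3 places, starting 159, 138 and 45 bases before the start site. The nearest of them is a CACGTG, the E-box bound by basic helix-loop-helix factors, which holds ACGTG on both strands. PPP1R3D held 1 CACGTG, at 209 bases, and PYGL held neither motif. Of 35116 RefSeq windows of the same length, 18.5% held ACGTG and 6.34% held CACGTG at 1 place or more. The share of windows with ACGTG at 3 places was not counted. Entries were found for 8 of the 9 members, the other being PPP1R3B. Among the members whose sequence is not printed, GYG1 held CACGTG, UGP2 (in 1 of its windows) and GBE1 held ACGTG without the E-box, and GYS1 and PYGB held neither. These are letter matches and were not tested for binding.

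PPP1R3C, on chromosome 10 from 91628442 to 91633071 (RefSeq, GRCh38.p14), had the lowest FPKM of the 9 in each library, control and knockdown. It was at 3.09, 2.87 and 2.41 CPM in shNC 1, 2 and 3 and at 12.8, 12.5 and 13.0 CPM in shCUEDC1 1, 2 and 3. Every knockdown library lay above every control library. The gene was picked for this rise, so the gap and its size beside the spread are a description. These levels rest on 46.0 to 60.9 estimated reads in a control library and 245 to 252 in a knockdown library. The means were 2.79 ± 0.345 and 12.8 ± 0.243 CPM (SD, n = 3 each), a 4.57-fold higher level in shCUEDC1 and a log2 difference of 2.19. Leaving out any 1 library gave log2 differences between 2.10 and 2.27, the lowest without shNC 3. In RNA from whole cultures, more cells that express a gene and more of its RNA per cell cannot be told apart, here and for each gene below.

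PPP1R3B, which encodes the targeting subunit known as GL and best known from liver, rose in the knockdown. It was at 23.6, 21.4 and 22.6 CPM in the controls and at 35.4, 37.7 and 34.4 CPM in shCUEDC1. The groups did not overlap. Its mean went from 22.5 ± 1.09 to 35.8 ± 1.68 CPM (SD, n = 3 each), up 59.1% (95% interval 42.5% to 77.7%), which is 0.67 on the log2 scale (SE 0.0713, adjusted p = 6.12e-04 by edgeR's quasi-likelihood test). The call held in every fit that left out 1 library, with adjusted p between 1.15e-08 and 0.00883 by edgeR. The lowest was without shNC 3, in a fit that called 28.1% of all genes.

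PPP1R3D, a targeting subunit found in many tissues, had the highest FPKM of the family in each library. In CPM it was at 29.6, 32.3 and 31.1 CPM in shNC and at 31.2, 32.9 and 31.0 CPM in shCUEDC1, with overlapping groups. The log2 difference for PPP1R3D was 0.03 (adjusted p = 0.812 by edgeR, 95% interval -0.12 to 0.18), so the interval leaves out changes of the size seen in PPP1R3B. PPP1R3D lies on chromosome 20 from 59936663 to 59940305, and exons of FAM217B overlap it on the other strand. FAM217B differed by -0.04 on the log2 scale.

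**Figure D1:**
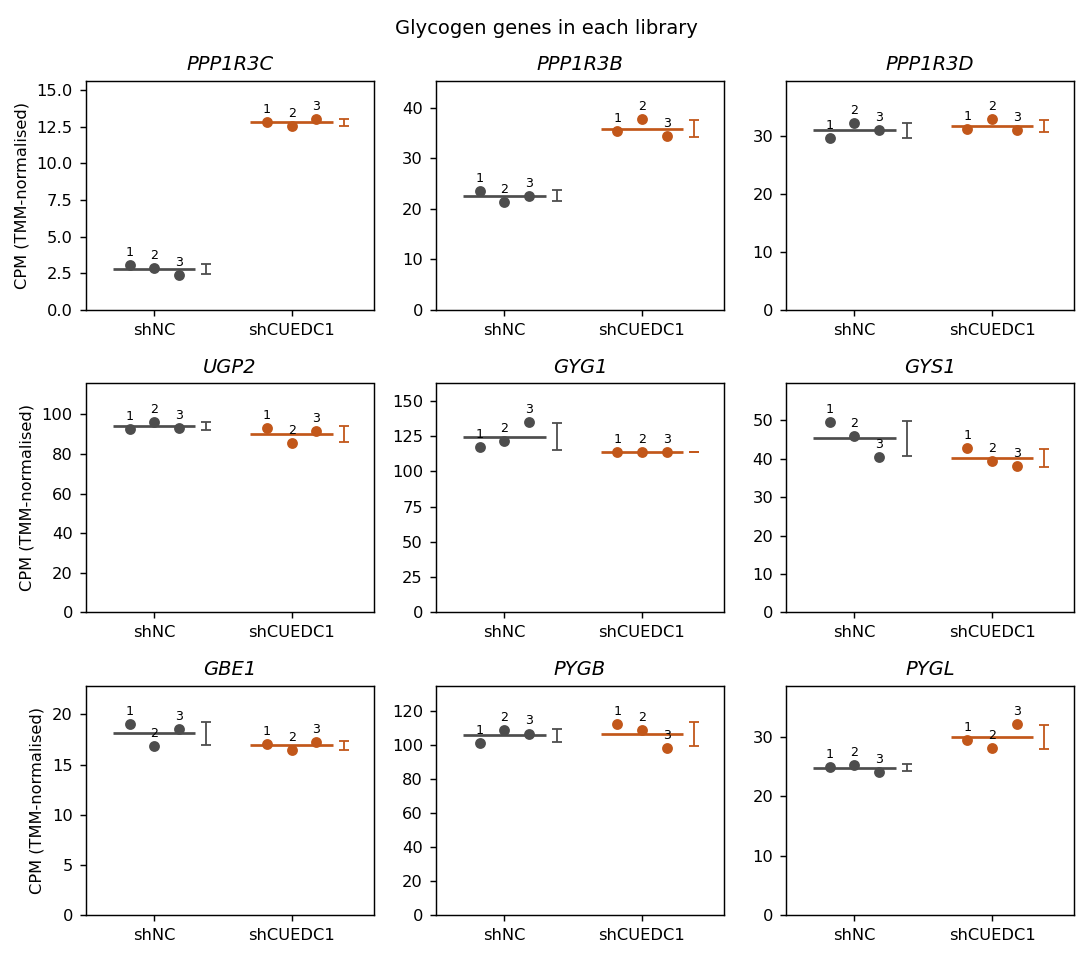
Level of each of the 9 genes in every library, in TMM-normalised CPM on an axis from 0; points are libraries numbered by replicate, horizontal lines are group means and bars are the SD of 3 libraries. For PPP1R3C, PPP1R3B and PYGL the shCUEDC1 points all lie above the shNC points, and for GYG1 they all lie below.

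Measured per gene length, the make-up of the targeting subunits shifted. In shNC, PPP1R3C gave 6.12%, 5.72% and 4.91% of the summed FPKM of the 6 family members in the table, and in shCUEDC1 it gave 19.8%, 18.8% and 19.6%. PPP1R3B went from 20.4% ± 0.983 to 24.8% ± 1.02 and PPP1R3D from 43.0% ± 1.93 to 33.4% ± 0.907 (SD, n = 3 each). The summed FPKM was 20.3, 20.3 and 19.95 in shNC and 25.9, 26.7 and 26.3 in shCUEDC1. PPP1R3C and PPP1R3B together went from 5.25 to 11.6 FPKM between the group means, while PPP1R3D was at 8.67 ± 0.381 and 8.77 ± 0.325 FPKM. These shares contain the gene picked for its rise and are a description. PPP1R3D remained above PPP1R3C in all libraries, by 6.68 to 8.88 times in shNC and by 1.65 to 1.82 times in shCUEDC1.

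**Figure D2:**
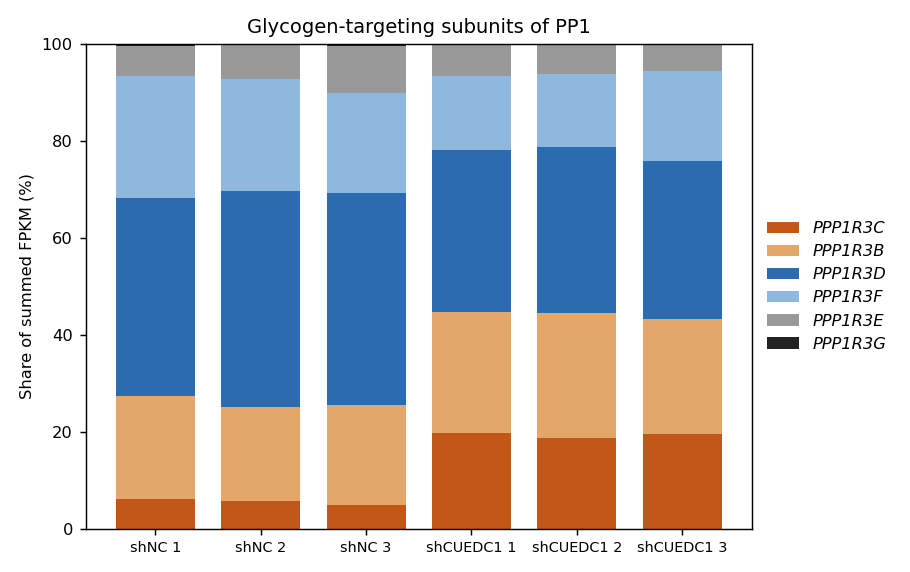
Share of each glycogen-targeting subunit of PP1 in the summed FPKM of the family, in percent, with 1 stacked bar per library. The PPP1R3C segment is between 4.91% and 6.12% in shNC and between 18.8% and 19.8% in shCUEDC1; PPP1R3G is at most 0.401% and barely visible.

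The 4 genes of glycogen synthesis were all lower on average in shCUEDC1, by small amounts that did not pass the test. UGP2, which makes UDP-glucose (chromosome 2, 63840969 to 63891560), was at 92.8, 96.3 and 92.9 CPM in shNC and at 93.1, 85.3 and 91.6 CPM in shCUEDC1. The groups overlapped and UGP2 differed by -0.06 on the log2 scale (adjusted p = 0.515 by edgeR, 95% interval -0.18 to 0.06).

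GYG1, glycogenin 1 (chromosome 3, 148991540 to 149031775), was the most abundant member. It was at 117, 122 and 135 CPM in shNC 1, 2 and 3, while each shCUEDC1 library was at 114 CPM. All 3 knockdown libraries lay below the controls, and shNC 3 was the highest. GYG1 differed by -0.13 on the log2 scale (adjusted p = 0.210 by edgeR, 95% interval -0.26 to 0.003). Without shNC 3 it was -0.06 (edgeR adjusted p = 0.293), and GYG1 was called in no fit that left out 1 library (lowest adjusted p 0.175).

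GYS1, glycogen synthase of muscle and most other tissues (chromosome 19, 48968130 to 48993309), was at 49.7, 45.8 and 40.6 CPM in shNC and at 42.8, 39.5 and 38.1 CPM in shCUEDC1. Here shNC 3 was the lowest control and lay within the range of the knockdown. GYS1 differed by -0.18 on the log2 scale (adjusted p = 0.224 by edgeR, 95% interval -0.36 to 0.01). Without shNC 3, GYS1 fell by 0.25 on the log2 scale (edgeR adjusted p = 0.00286), in a fit in which 28.1% of genes were called. In no other fit that left out 1 library was it called, and the highest adjusted p was 0.547.

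GBE1, the branching enzyme (chromosome 3, 81489703 to 81761645), was at 19.0, 16.8 and 18.5 CPM in shNC and at 17.1, 16.4 and 17.3 CPM in shCUEDC1. The ranges overlapped. GBE1 differed by -0.10 on the log2 scale (adjusted p = 0.508 by edgeR, 95% interval -0.29 to 0.09).

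Of the phosphorylases, PYGL passed the test and PYGB did not, and the difference between them was not tested. PYGL, the form best known from liver (chromosome 14, 50905217 to 50944483), was at 25.0, 25.4 and 24.1 CPM in shNC and at 29.6, 28.1 and 32.2 CPM in shCUEDC1, with no overlap. Its mean rose from 24.8 ± 0.628 to 30.0 ± 2.05 CPM (SD, n = 3 each), by 20.6% (95% interval 7.56% to 35.3%), a log2 change of 0.27 (edgeR adjusted p = 0.0474). This call was narrow: the adjusted p was 0.0652 by DESeq2, 0.0512 by limma-voom and 0.0583 by limma-trend on FPKM. By edgeR it was 0.00894 without shNC 3, in a fit that called 28.1% of all genes. Without any other single library the edgeR adjusted p was between 0.0832 and 0.177.

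PYGB, the form named for brain (chromosome 20, 25248085 to 25298012), was the more abundant phosphorylase. It was at 101, 109 and 107 CPM in shNC and at 112, 108 and 98.3 CPM in shCUEDC1. The groups overlapped, and PYGB differed by 0.01 on the log2 scale (adjusted p = 0.939 by edgeR, 95% interval -0.13 to 0.15). Per gene length, PYGB stood at 2.73, 2.88 and 2.99 times the FPKM of PYGL in shNC and at 2.52, 2.60 and 2.05 times in shCUEDC1. The ratio was lower in each knockdown library than in each control, and whether it differs was not tested. PYGM, the muscle phosphorylase, gave at most 0.848% of the summed phosphorylase FPKM in any library.

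Of the 8 members picked by function, 2 rose, PPP1R3B and PYGL, 0 fell and 6 were not called. That is 25% of the 8, beside 9.96% of all genes tested that were called in either direction, 5.19% higher and 4.77% lower. The 8 were picked with earlier results of these data known, so this share is a description. PPP1R3B was the 1 member of the 8 called by DESeq2, limma-voom and limma-trend on FPKM, which called 10.6%, 9.84% and 8.26% of all genes. The median log2 difference of the 8 was -0.03, beside -0.004 over all genes tested. Non-overlapping groups were seen for 3 of the 8 (37.5%), which is close to the 31.3% of all genes. Antisense genes overlap exons of PPP1R3B and PYGL on the other strand in GENCODE v29. Whether the counting used strand is not given in the sources used here, so reads from these pairs cannot be told apart.

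**Figure D3:**
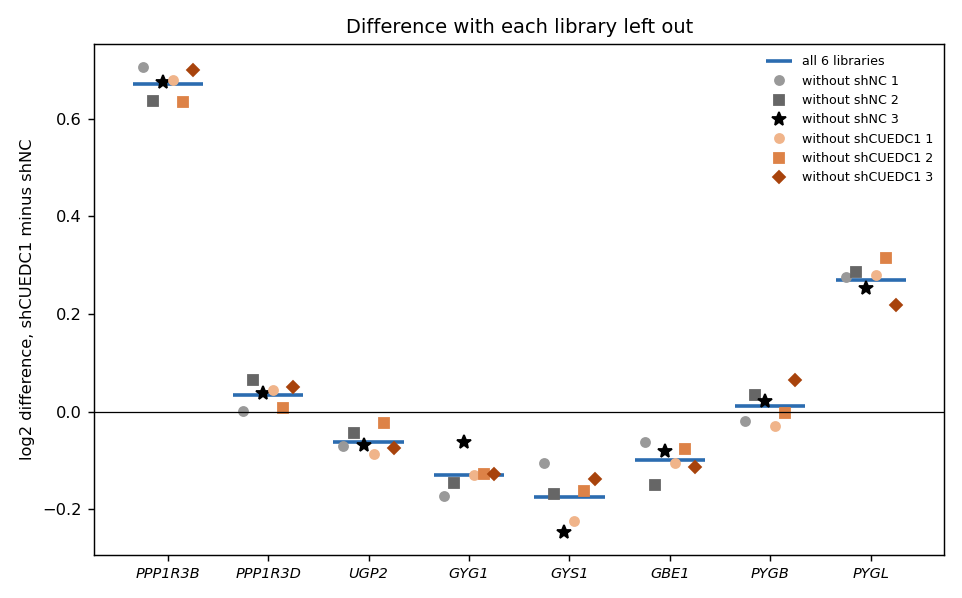
Log2 difference in level, shCUEDC1 minus shNC (edgeR), for the 8 members picked by function, with all 6 libraries (line) and with each library left out (symbols). PPP1R3B stays between 0.63 and 0.71 and PYGL between 0.22 and 0.32, while the star, the fit without shNC 3, is the lowest value for GYS1 (-0.25) and the highest for GYG1 (-0.06).

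Ordered by mean FPKM over the 6 libraries, the members ran GYG1 (64.2), UGP2 (45.6), PYGB (26.0), GYS1 (12.4), PYGL (10.0), PPP1R3D (8.72), GBE1 (6.06), PPP1R3B (5.31) and PPP1R3C (3.11). The ranges of the first 3, over all libraries, were separated from those of their neighbours. The ranges of GYS1 (10.99 to 14.6 FPKM) and PYGL (8.84 to 11.6) overlapped, and in shCUEDC1 3 PYGL was the higher. GBE1 was above PPP1R3B in each shNC library and below it in each shCUEDC1 library. Ranges of PYGL and PPP1R3D, and of PPP1R3B and PPP1R3C, overlapped when the groups were pooled, but within each library PYGL was above PPP1R3D and PPP1R3B above PPP1R3C. In shNC, PPP1R3C was at 1.13 ± 0.133 FPKM, below PPP1R3B at 4.12 ± 0.195 and GBE1 at 6.30 ± 0.401. In shCUEDC1, PPP1R3C at 5.10 ± 0.0794 came close to GBE1 at 5.81 ± 0.127, and PPP1R3B at 6.50 ± 0.320 was above both (SD, n = 3 each).

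Of 50 other genes listed by their role in glycogen metabolism, 45 were tested. These lists were also drawn up with earlier results of these data known. PPP1R3G, G6PC1 and PRKAG3 did not pass the low-count filter, and PPP1R3A and GYS2 were not found by symbol among the 17758 genes. Among the 45, 1 rose and 1 fell, 4.44% called beside 9.96% of all genes, and their median log2 difference was -0.06. Without shNC 3, 5 rose and 4 fell, in a fit in which 14.3% of all genes were called higher and 13.8% lower.

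Among 5 other subunits of PP1 tested, 0 were called. PPP1CC, a catalytic subunit, differed by 0.10 on the log2 scale (edgeR adjusted p = 0.203) and PPP1CA, another, by -0.04 (edgeR adjusted p = 0.681). Without shNC 3, in a fit that called 28.1% of all genes, PPP1CC rose by 0.13 (edgeR adjusted p = 0.00858). No other fit that left out 1 library called PPP1CC (highest edgeR adjusted p 0.430). PPP1R3F, a further targeting subunit, differed by -0.09. PPP1R3E, another, differed by 0.06, with 0.26 without shNC 3 and -0.06 without shNC 1 and no call in any of these fits. PPP1R3G was at 0.02 to 0.08 FPKM in each library.

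Of 4 other synthesis genes, 0 were called. PGM1, a phosphoglucomutase that interconverts glucose 1-phosphate and glucose 6-phosphate, differed by -0.16 (edgeR adjusted p = 0.286). PGM2 differed by -0.11 (edgeR adjusted p = 0.372). PGM1 was at 49.1, 52.2 and 41.9 CPM in shNC and at 42.0, 45.2 and 41.3 CPM in shCUEDC1. As with GYS1, shNC 3 lay at the level of the knockdown, and without it PGM1 fell by 0.24 (edgeR adjusted p = 0.00239). That fit called 28.1% of all genes, and no other fit that left out 1 library called PGM1 (highest edgeR adjusted p 0.593).

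Of 13 other breakdown genes, 0 were called. They include the subunits of phosphorylase kinase and the laforin gene EPM2A (-0.23, or -0.14 without shNC 3), with log2 differences from -0.50 for PYGM, which was at 0.07 to 0.31 FPKM, to 0.16 for GAA. GAA, the lysosomal glucosidase that digests glycogen, was at 136, 144 and 141 CPM in shNC and at 153, 162 and 156 CPM in shCUEDC1. Its groups did not overlap, and the edgeR adjusted p was 0.0626, or 0.00334 without shNC 3, where 28.1% of all genes were called. GAA was called in no other fit that left out 1 library (highest edgeR adjusted p 0.253). G6PC3, a glucose 6-phosphatase, differed by -0.11 (edgeR adjusted p = 0.323).

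Of 16 kinases and kinase subunits that act on glycogen synthase or phosphorylase, 1 rose and 1 fell. That is 12.5% called, close to the 9.96% of all genes. PRKAA2, a catalytic subunit of the AMP-activated kinase, was at 11.0, 13.6 and 12.7 CPM in shNC and at 17.8, 17.1 and 15.5 CPM in shCUEDC1, a rise of 0.43 on the log2 scale (edgeR adjusted p = 0.0288). PRKAR2A, a regulatory subunit of the cyclic AMP-dependent kinase, was at 65.3, 69.1 and 83.2 CPM in shNC and at 56.3, 58.5 and 51.6 CPM in shCUEDC1, a fall of 0.39 (-0.39, edgeR adjusted p = 0.0287). Both were separated from the controls in all libraries, with shNC 3 the highest for PRKAR2A. PRKAA2 lost its call without shNC 1 or any 1 knockdown library and PRKAR2A without any 1 knockdown library, where edgeR's adjusted p reached 0.134 and 0.142. By limma-trend on FPKM neither was called (adjusted p = 0.0891 and 0.0670). Without shNC 3, PRKAR2A fell by 0.27 (-0.27, edgeR adjusted p = 3.46e-04), in a fit that called 28.1% of all genes. Of the glycogen synthase kinases neither was called, and GSK3A differed by -0.01. GSK3B differed by -0.13 with all libraries, but shNC 3 was its highest control and without it the difference was 0.01 (edgeR adjusted p = 0.858).

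Of 7 other users of UDP-glucose, 0 were called. UGCG, ceramide glucosyltransferase, differed by -0.02 on the log2 scale (edgeR adjusted p = 0.858).

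**Figure D4:**
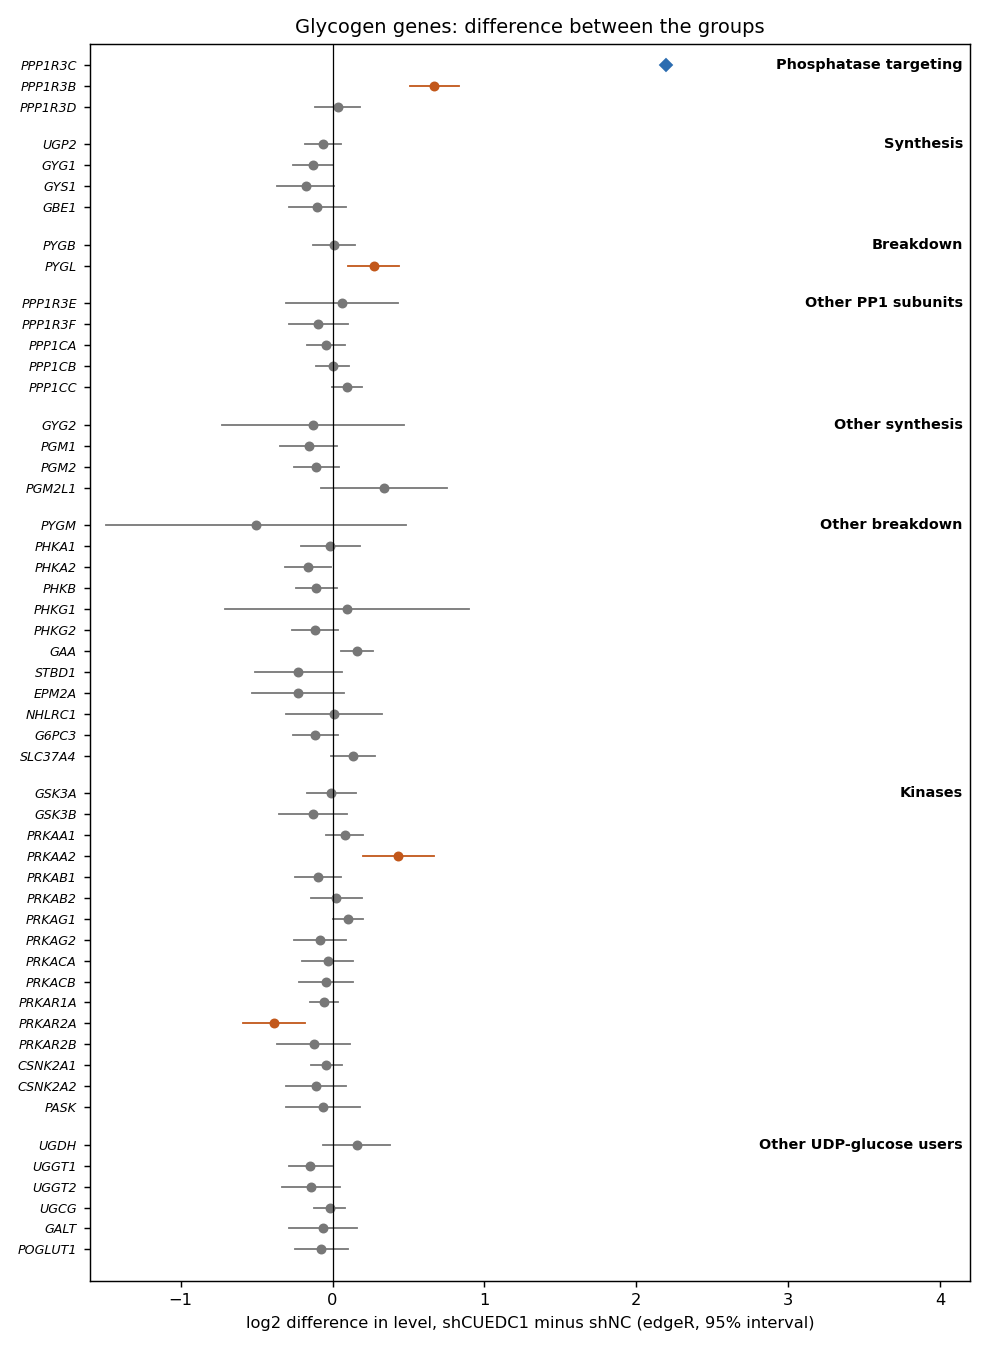
Log2 difference in level, shCUEDC1 minus shNC (edgeR), for the 9 genes and 43 of the 45 other glycogen genes tested, grouped by role, with 95% intervals as lines. Orange marks an adjusted p below 0.05 (PPP1R3B, PYGL, PRKAA2 and PRKAR2A), grey the rest, and the blue diamond is PPP1R3C, shown with no interval since it was picked for its rise.

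Likeness to the profile of PPP1R3C was measured as the root mean square difference in log2 CPM over the 6 libraries, each gene centred on its own mean, among 11999 genes with at least 1 FPKM in the higher group. ELOVL2, a fatty acid elongase, differed from PPP1R3C by 0.33, LYZ, lysozyme, by 0.36, CALCR, the calcitonin receptor, by 0.37 and PDZK1, a scaffold protein, by 0.39. ELOVL2 was at 15.3, 10.8 and 8.81 CPM in shNC and at 36.3, 35.3 and 31.5 CPM in shCUEDC1, and like PPP1R3C was lowest in shNC 3. LYZ, CALCR and PDZK1 were highest, among controls, in shNC 3, at 2.94, 1.42 and 43.3 CPM. None of the 5 nearest was on the glycogen lists, and the likeness is a description of these 6 libraries.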

How the data were processed

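RNA was extracted with TRIzol and poly(A) RNA was made into random-primed libraries, per the labels' protocols. The genome was GRCh38 (p13), per the submitters' processing notes; neither the aligner nor the counting program is given in the sources read. The authors deposited estimated counts per gene, not normalised, and FPKM, which they scaled to gene length and library size. The 12 other per-sample columns and 8 group means were not used. Estimated counts were rounded, filtered with filterByExpr (minimum count 10), normalised by TMM and compared with edgeR 4.0.16 in R 4.3.3 (robust quasi-likelihood F test, Benjamini-Hochberg adjustment over all 13824 genes, called below 0.05). SE and 95% intervals derive from the F statistic. The fit was tested on simulated data. Alternatives were RLE factors, no filter beyond 1 count, at least 1 CPM in 3 libraries, DESeq2 1.42.0, limma-voom, limma-trend (limma 3.58.1) on log2(FPKM + 0.5), a block for the replicate number, and leaving out each library.

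Members, lists and motifs were chosen with earlier results of these data known. Named genes were the members, CUEDC1, up to 4 called genes of each further list by smallest p (or, with none called, the 2 highest in FPKM) and the 5 profiles nearest to PPP1R3C. A few genes that this rule or the lists take are not reported here. EPM2A, PYGM, GSK3A, GSK3B and the PPP1R3 paralogues fall outside that rule and were named after their values were seen. The planned protein comparison was not made.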

Additional observations from a re-analysis of the deposited data

How the results depend on the processing

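PPP1R3B rose and was called under all alternatives run. Of 8 members picked by function, 2 were called with all libraries and with other size factors or filters, 1 by DESeq2, limma-voom, limma-trend on FPKM or the replicate block, and 1 to 3 when 1 library was left out. Of the 45 other glycogen genes, 2 were called, 0 by limma-trend on FPKM or with the replicate block, and 0 to 9 when 1 library was left out. Over all genes, 1377 were called, and 468 to 3925 when 1 library was left out; the highest was without shNC 3, and the counts without shNC 1 and without shCUEDC1 1, 2 and 3 were 688, 513, 468 and 519. With the replicate block it was 1117. Same-numbered libraries did not deviate together (correlations 0.004, 0.07 and 0.03), so the numbers are not taken as pairs. Of the named genes' directions, 0 turned in a way that touched a call. PPP1R3C differed by 1.79 on the log2(FPKM + 0.5) scale, which understates low genes. With 46.0 to 60.9 reads in a control library, counting error limits the precision of its fold.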
